A study of Mus musculus with 4 samples.

Results

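Mitosis and spindle genes were followed in mouse embryonic fibroblasts (MEFs) that were harvested at low or at high density. The 42 genes were chosen by name: each gene whose symbol was on a written list and which had a non-control probe on the arrays, with its brightest probe taken as its value. They were 42 of 27745 gene names on the arrays, and all 42 had a probe. Cdc2a is the older name of Cdk1, and the array's name is kept here.

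The study hybridised RNA of MEFs from C57BL/6J mice to 4 Agilent whole mouse genome arrays with 2 colours, to compare sparse with contact-inhibited cultures. MEFs labelled Lats2+/+ (WT) or Lats2-/- (KO) were grown in DMEM with 10% fetal bovine serum, for 48 h until subconfluent (low density) or for 3 to 5 days (high density), so culture time changed together with density. Each genotype had 2 arrays with the dyes exchanged, and each array held both densities of 1 genotype. This gives 1 sample per genotype and density, measured in 2 dyes, and the labels leave unsaid if a dye-swapped pair shared its extracts and how many cultures or embryos stood behind it. Lats2 is a Hippo pathway kinase gene, and the methods take the KO MEFs from an earlier study.

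The share of features well above background ran from 52.8% to 67.7% over the channels, and 0 features were saturated. Both WT arrays lay on 1 slide, and the KO arrays on 2 other slides that were scanned at different times, so slide and genotype cannot be told apart. The density effect is measured within an array and does not cross slides. Of 4 Lats2 probes, 3 gave more signal on the arrays labelled KO, with log2 differences of 1.38, 1.39 and 1.19 at low and 1.49, 1.34 and 0.91 at high density. The fourth gave less, with -0.63 and -1.26. Which part of Lats2 was deleted is not given in the sources used here, and a probe outside it checks nothing. From these probes, an exchange of the genotype labels and a transcript that remains in KO cannot be told apart. The study also blotted Lats2 protein in Lats2 KO MEFs, a measure not analysed here. The genotype of each array is taken from its label, and WT and KO, with each direction between them, mean the arrays so labelled. All 7 fibroblast markers (Col1a1, Col1a2, Col3a1, Vim, Pdgfra, Pdgfrb and Thy1) were well above background in all 8 channels, against 2 of 5 macrophage, 0 of 5 endothelial and 0 of 4 epithelial markers. Ptprc, Emr1, Pecam1, Cdh5 and Cdh1 were not well above background in any channel. The summed intensity of the fibroblast markers was 250000 at low and 390000 at high density in WT, and 214000 and 607000 in KO, but they did not move together. By the 2-fold rule given below, Col3a1 (4.14 in WT and 3.44 in KO, high minus low density on the log2 scale) and Pdgfra (3.05 and 1.68) rose in both genotypes, Pdgfrb rose in WT (1.44), and Col1a1 (2.16) and Col1a2 (2.25) rose in KO. Thy1 fell in WT (-1.18), and Vim gave -0.51 and -0.54. Between genotypes, Pdgfra, a platelet-derived growth factor receptor of fibroblasts, was higher in KO by 4.46 at low and by 3.10 at high density and Thy1 was higher at high density (1.39). Col1a2 was lower in KO at low density (-1.001), as was the macrophage marker Cd14 at both (-1.80 and -1.59). The part of these marker differences in the results was not tested.

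Mitosis separates the copied chromosomes into daughter cells. CDK1 with its cyclins starts it, polo and Aurora kinases and kinesins build a spindle whose microtubules attach to kinetochores, and a checkpoint holds the anaphase-promoting complex in check until the chromosomes are attached. Many of the genes are transcribed late in the cycle, through promoters that carry a CHR element and CCAAT boxes bound by MuvB complexes and NF-Y, and fibroblasts are known to stop dividing when crowded.

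RefSeq promoter windows (GRCm38.p6, 250 bases before to 50 bases after a gene's start) were found for 35 of the 42 genes. There was none for Ccna2, Cdc25c, Foxm1, Aurkb, Incenp, Kif20a and Tpx2. Windows are shown for the 3 matched genes with the lowest density effect in WT (Anln, Top2a and Cdc2a) and for the pair with the smallest fall or a higher level (Ccnb2 and Pttg1), to set the letters of genes that fell furthest beside those of genes that were not called. They lie on the minus strand at chr9:22389157-22389456, chr11:99024140-99024439, chr10:69352863-69353162, chr9:70421505-70421804 and chr11:43425932-43426231, and are written 5′ to 3′ along the gene. Capitals mark TTTGAA or TTTAAA, the letters of CHR elements, and CCAAT, the CCAAT box, on either strand.
Anln: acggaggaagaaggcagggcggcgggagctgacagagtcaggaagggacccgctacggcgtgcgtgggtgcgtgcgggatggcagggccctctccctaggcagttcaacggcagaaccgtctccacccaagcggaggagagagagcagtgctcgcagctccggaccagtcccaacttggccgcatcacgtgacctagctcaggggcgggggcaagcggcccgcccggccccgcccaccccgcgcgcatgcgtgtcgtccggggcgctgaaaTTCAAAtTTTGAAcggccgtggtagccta
Top2a: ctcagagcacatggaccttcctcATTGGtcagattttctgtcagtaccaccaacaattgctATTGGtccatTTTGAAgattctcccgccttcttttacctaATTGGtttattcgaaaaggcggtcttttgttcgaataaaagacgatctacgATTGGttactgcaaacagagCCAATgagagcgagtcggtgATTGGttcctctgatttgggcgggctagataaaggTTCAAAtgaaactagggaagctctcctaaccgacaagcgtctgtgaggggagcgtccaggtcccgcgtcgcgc
Cdc2a: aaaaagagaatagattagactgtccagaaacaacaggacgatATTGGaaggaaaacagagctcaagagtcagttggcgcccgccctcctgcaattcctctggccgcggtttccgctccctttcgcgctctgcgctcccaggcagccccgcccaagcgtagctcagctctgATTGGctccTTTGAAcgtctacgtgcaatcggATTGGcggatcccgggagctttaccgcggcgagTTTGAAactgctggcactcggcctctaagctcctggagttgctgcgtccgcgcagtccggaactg
Ccnb2: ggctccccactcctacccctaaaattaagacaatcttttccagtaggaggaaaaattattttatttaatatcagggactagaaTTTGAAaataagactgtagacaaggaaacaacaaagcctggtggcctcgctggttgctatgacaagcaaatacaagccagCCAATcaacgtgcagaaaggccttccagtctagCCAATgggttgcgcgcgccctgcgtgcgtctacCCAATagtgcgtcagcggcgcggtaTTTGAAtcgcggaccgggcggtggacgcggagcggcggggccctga
Pttg1: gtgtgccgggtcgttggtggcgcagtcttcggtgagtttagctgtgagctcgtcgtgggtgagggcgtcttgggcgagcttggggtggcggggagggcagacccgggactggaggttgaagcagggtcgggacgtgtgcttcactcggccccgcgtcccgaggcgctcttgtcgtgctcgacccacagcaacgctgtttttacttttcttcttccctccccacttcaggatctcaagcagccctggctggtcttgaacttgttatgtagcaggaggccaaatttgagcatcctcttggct

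Within the matched windows, TTTGAA on either strand stood in 26 of 35 (74.3%), against 18.1% of the 27025 genes with a window. The letters TTTAAA, which read the same on both strands, were in 8 of 35 (22.9%, against 13.2%). One or the other was in 29 of 35 (82.9%, against 27.8%), and in 27 of 35 (77.1%, against 12.9%) it began no more than 100 bases before the start or lay after it. CCAAT stood in 27 of 35 windows (77.1%, against 37.9%), at least 2 copies in 19 (54.3%, against 12.2%), and a CCAAT together with a CHR in 25 (71.4%, against 10.9%). Top2a held 6 CCAAT and 2 TTTGAA, and Cdc2a held 3 CCAAT and 2 TTTGAA. Anln held 2 TTTGAA and no CCAAT, Ccnb2 held 3 CCAAT and 2 TTTGAA, and Pttg1 held none of them. The median density effect in WT was -1.43 over the 29 genes with a CHR and -1.54 over the 6 without, and -1.47 over the 19 with at least 2 CCAAT and -1.44 over the other 16. A match in letters is no measured binding site.

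In WT most of the 42 genes were lower at high density. Values below are log2 of normalised intensity, high minus low density, averaged over both arrays, and a gene was called lower or higher when this mean was at least 1 in size (2-fold) and both arrays had its sign. The rule called 35 of 42 genes lower, beside 6.09% of all genes tested, and 0 higher, beside 9.41%. The median was -1.46, a 2.75-fold lower level, against 0.06 over all 14880 genes, and the quartiles were -1.67 and -1.18. Of the 42 genes, 41 were below 0 on both arrays. In KO the same genes ran from -0.91 to 0.60 with a median of -0.24, against 0.06 over all 15443 genes. By the rule 0 were called lower, beside 3.88%, and 0 higher, beside 7.15%. Still, 33 of the 42 were below 0 in KO, beside 45.5% of all genes, and 29 were so on both arrays. With each array centred on its median in place of loess, Mad2l1, Nek2 and Ube2c were called lower in KO, 3 of 42 beside 6.94% of all genes in that setting. There the median was -0.54, and 41 of 42 genes were below 0. Without KO replicate 1 the median in KO was -0.14. Less RNA of these genes in each cell and fewer dividing cells cannot be told apart in bulk RNA.

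**Figure D1:**
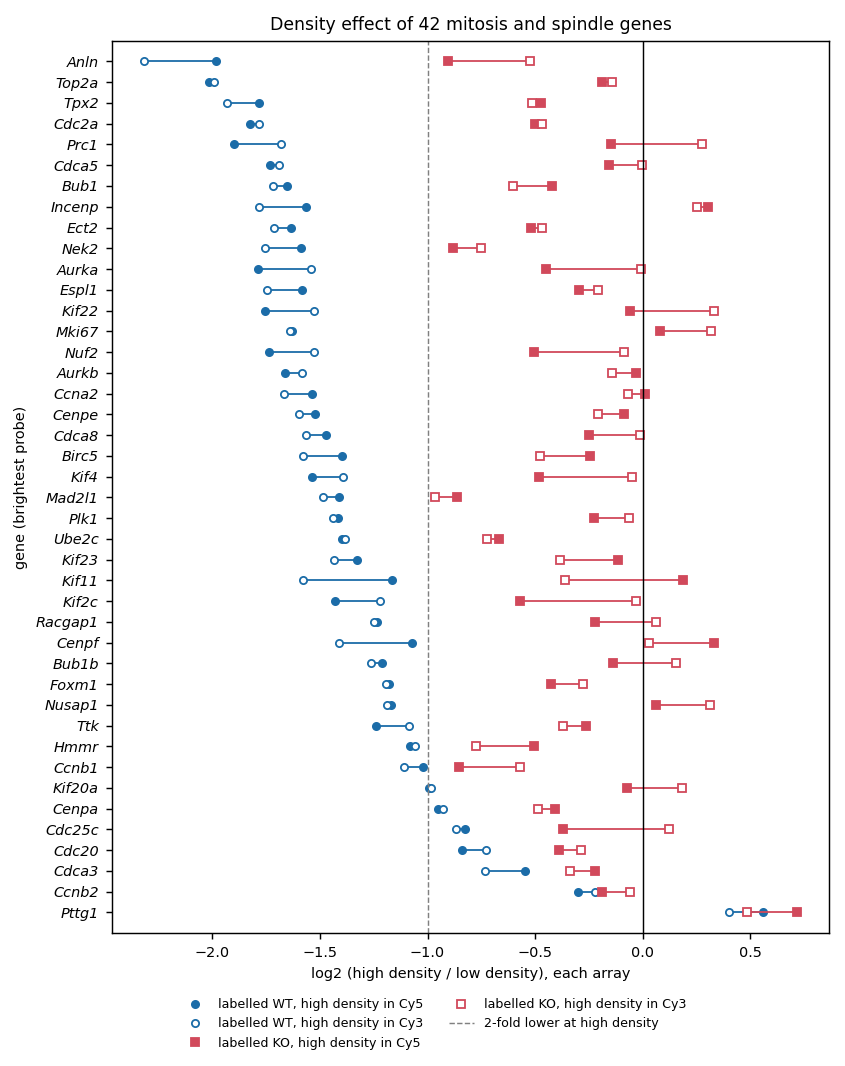
Each row is 1 of the 42 genes, ordered by its WT value, and the x axis is log2 of high over low density on a single array. Circles are the WT arrays and squares the KO arrays, filled where high density was in Cy5 and open where it was in Cy3; the dashed line marks a 2-fold lower level. The WT points of 35 genes average beyond the line, and no KO gene's mean reaches it.

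The difference between both density effects, KO minus WT, was above 0 in both dye orientations for 42 of 42 genes, with a median of 1.22 against 0.02 over 14168 genes. It was called higher (KO less lowered by density) in 29, beside 4.56% of all genes, and lower in 0, beside 4.98%. With the mean over probes it was called in 21, beside 3.39% of all genes in that setting, without Anln (0.90), Cdc2a (0.77), Cdca8 (0.84), Cenpf (0.93), Ect2 (0.77), Kif11 (0.68), Kif20a (0.98) and Nuf2 (0.67), and Top2a gave 1.04 in place of 1.84. With median centring Ccnb2 and Pttg1 turned to the other side of 0. The spread between the dye-swapped arrays was small beside these sizes: the deviation of an array from its pair's mean had an SD over the 42 genes of 0.08 in WT and 0.13 in KO. With 1 sample per condition, neither a density effect in 1 genotype, nor a genotype difference, nor this difference could be tested. Over the 42 genes the WT and KO density effects, which come from separate arrays, had a Pearson r of 0.30, against 0.63 over all 14168 genes; genes share arrays and are not independent.

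The cyclins and regulators of CDK1 were 6 genes, of which 4 fell in WT. Cdc2a, the kinase that drives entry into mitosis (probe at chr10:68738032-68740441 in mm8, minus strand), gave 13.16 and 13.07 in the WT low density channels and 11.33 and 11.29 at high density. Its KO levels were 12.03 and 11.78 at low and 11.53 and 11.31 at high density. The WT low density values stood apart above the other 6, and the density effect was -1.81 in WT and -0.48 in KO. Averaged over its 2 probes, of which the dimmer was well above background in 3 of 8 channels, the WT value was -1.05. Ccna2, the cyclin of S phase and early mitosis, fell by 1.60 in WT and gave -0.03 in KO, where the arrays lay on either side of 0. Ccnb1, the main mitotic cyclin, fell by 1.06 in WT and gave -0.71 in KO, a difference of 0.35 between genotypes. That size depended on the probe: the other 2 probes gave -1.25 and -1.38 in WT and -0.51 each in KO, with differences of 0.75 and 0.87. Foxm1, a transcription factor that acts on late cell-cycle promoters, fell by 1.18 in WT and gave -0.35 in KO. Cdc25c, the phosphatase that activates CDK1, gave -0.85 and -0.12, and its second probe gave 0.06 in KO, so the sign there depended on the probe. Ccnb2, another mitotic cyclin, was not called in either genotype. Its levels were 13.26 and 13.10 in WT at low density, 12.96 and 12.88 at high density, 14.05 and 13.84 in KO at low and 13.86 and 13.78 at high density. Its density effects were -0.26 in WT and -0.12 in KO, and all KO values lay above all WT values.

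Activators, substrates and inhibitors tied to the anaphase-promoting complex (APC/C) divided, with 3 of 6 lowered in WT. Espl1, the protease separase that cuts cohesin, fell by 1.66 in WT and gave -0.25 in KO. Cdca5 (sororin), which protects cohesin, fell by 1.71 and gave -0.08. Ube2c, the ubiquitin-conjugating enzyme of the APC/C, fell by 1.39 in WT and gave -0.70 in KO. Cdc20, the mitotic APC/C activator, gave -0.78 and -0.34, and Cdca3, a substrate of the APC/C, -0.64 and -0.28, short of 2-fold on each array. Pttg1, which encodes securin, the inhibitor of separase, ran against the rest. It was at 11.94 and 11.98 in WT at low density and at 12.50 and 12.38 at high density, and in KO at 12.06 and 12.24 and then 12.78 and 12.73. Its high density values lay above its low density values in both genotypes, by 0.48 and 0.60, below the 2-fold rule.

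All 7 mitotic and checkpoint kinases and their partners fell in WT. Bub1, a checkpoint kinase at kinetochores, fell by 1.69, Nek2, a centrosome kinase, by 1.67, and Aurka, the Aurora kinase of the spindle poles, by 1.67. Plk1, the polo kinase, fell by 1.43, Bub1b (BubR1) by 1.24 and Ttk (Mps1) by 1.16, both of the spindle checkpoint. With the processed signals Ttk gave -1.94. The KO values of these genes were -0.51, -0.82, -0.23, -0.14, 0.01 and -0.32. Mad2l1, which encodes the checkpoint protein MAD2 and no kinase, had the lowest KO value of the 42. Its WT levels were 11.66 and 11.70 at low and 10.25 and 10.21 at high density, and its KO levels were 10.48 and 10.48 at low and 9.62 and 9.52 at high density. In both genotypes its high density values lay below its low density values, and it fell by 1.45 in WT, where it was called, and gave -0.91 in KO, where it was not. The second Mad2l1 probe gave -1.39 and -0.86. Nek2 differed from the other kinases at low density, with 10.61 and 10.62 in WT and 10.71 and 10.58 in KO. The genotypes overlapped there, and at high density its WT levels were 9.02 and 8.87 and its KO levels 9.83 and 9.83.

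The chromosomal passenger complex, which corrects faulty attachments and later acts in cytokinesis, fell as a whole in WT, with 4 of 4 genes called and a median of -1.57. Aurkb, its kinase, gave 10.58 and 10.60 in WT at low density, 8.92 and 9.02 at high density, 9.47 and 9.72 in KO at low and 9.43 and 9.57 at high density. The WT channels bracketed the KO channels, which overlapped between densities. Incenp, the scaffold of the complex (probe at chr19:9939450-9939509 in mm8, minus strand), was at 14.66 and 14.65 in WT at low density and at 13.09 and 12.86 at high density. In KO it was at 13.14 and 13.53 at low and at 13.44 and 13.78 at high density. It fell by 1.68 in WT and gave 0.28 in KO, and its difference of 1.95 between genotypes was the largest of the 42 genes. Birc5 (survivin) fell by 1.49 and Cdca8 (borealin) by 1.52 in WT, with KO values of -0.36 and -0.13. The dimmest Cdca8 probe, well above background in 3 of 8 channels, gave -0.39 in WT.

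Of the 6 kinesins, 5 fell in WT, and Kif20a, a kinesin of the midzone and cleavage furrow, gave -0.99, just inside the 2-fold line. Kif22, which pushes on chromosome arms, fell by 1.64, Kif4, a motor of chromosomes and midzone, by 1.47, Kif23, of the centralspindlin complex, by 1.38, Kif11, which slides the spindle poles apart, by 1.37 and Kif2c, which takes microtubule ends apart, by 1.33. Their KO values lay between -0.30 and 0.13, and the difference between genotypes was called in 6 of 6 by the brightest probe. In KO, Kif11, Kif22 and Kif20a had 1 array on each side of 0, and the second Kif20a probe gave -0.03 where the brighter one gave 0.05. The other 2 Kif11 probes, well above background in 6 of 8 channels, gave -0.65 and -0.41 in WT, and the mean over the 3 probes, -0.81, was not called.

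At centromeres and kinetochores, 3 of 4 genes fell in WT. Nuf2, part of the complex that binds microtubule ends, fell by 1.63, Cenpe, a kinetochore motor, by 1.56 and Cenpf by 1.24. The mean over the 2 Nuf2 probes, of which the dimmer was not well above background in any channel, was -0.79. Cenpa, the histone H3 variant of centromeres, gave -0.94. The KO values were -0.30, -0.15, 0.18 and -0.45. For Cenpf a second probe gave -0.50 in WT and -0.07 in KO, with the KO sign reversed against the brighter probe.

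Among spindle assembly and midzone proteins, 4 of 4 genes fell in WT. Tpx2, which activates Aurora A and nucleates microtubules, fell by 1.86 in WT and gave -0.49 in KO. Prc1, which bundles midzone microtubules (probe at chr7:80189665-80189717 in mm8, plus strand), was at 14.29 and 14.17 in WT at low density and at 12.39 and 12.49 at high density. Its KO levels were 12.44 and 12.48 at low and 12.30 and 12.76 at high density. The 6 values other than WT low density overlapped one another, and both KO low density values lay between its WT high density values. Nusap1, a microtubule-binding protein, fell by 1.18 and Hmmr, a spindle protein that also binds hyaluronan, by 1.07, with KO values of 0.19 and -0.64. With the processed signals Hmmr gave -1.71 in WT.

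By the brightest probe, the largest falls in WT were those of Anln, of cytokinesis, and Top2a, of chromosome structure. With the mean over probes the lowest WT value was -1.86, that of Tpx2. Anln, the anillin scaffold of the cleavage furrow (probe at chr9:22084524-22088340 in mm8, minus strand), had the lowest WT value of the 42. Its levels were 9.78 and 10.01 in WT at low density and 7.80 and 7.69 at high density, against 8.78 and 8.80 and then 7.88 and 8.27 in KO. It fell by 2.15 in WT and gave -0.71 in KO, while its second probe gave -1.29 and -0.93, which left a difference of 0.36 between genotypes in place of 1.44. Ect2, the exchange factor that activates RhoA at the equator, fell by 1.67 and Racgap1, the other part of centralspindlin, by 1.24, with KO values of -0.49 and -0.08. A less bright Ect2 probe gave -0.63 in WT. Top2a, the topoisomerase that untangles sister chromatids, gave -2.02 and -1.99 on the WT arrays and Mki67, which coats mitotic chromosomes, fell by 1.63, with KO values of -0.16 and 0.20. The mean over the 3 Top2a probes was -1.26 in WT.

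Compared between genotypes at low density, the 42 genes were mostly lower in KO. The difference, KO minus WT within the same dye, had a median of -1.01 against 0.03 over 15252 genes. It was called lower in 22 genes, beside 8.37%, and higher in 0, beside 7.31%. Without scaling between arrays, which moved the median of all genes from 0.03 to 0.27, 9 of these 22 were still called, beside 5.25% of all genes in that setting. Prc1 (-1.77), Espl1 (-1.67), Racgap1 (-1.58) and Foxm1 (-1.57) were lowest. By group, 3 of 4 chromosomal passenger, 3 of 3 cytokinesis, 2 of 2 chromosome structure and 4 of 6 kinesin genes were called. So were 3 of 6 genes of CDK1 control, 3 of 6 tied to the APC/C and 2 of 7 kinases and partners. Centromere and kinetochore genes gave 1 of 4, and spindle assembly and midzone genes 1 of 4. Ccnb2 (0.76), Cenpa (0.27), Hmmr (0.21), Pttg1 (0.19) and Nek2 (0.03) were above 0. The probe mattered here: of 18 genes with at least 2 measured probes, Anln, Cenpe and Top2a had probes of opposite sign, with -1.11 and 0.37 for Anln and -1.12 and 0.14 for Top2a. With the mean over probes 16 genes were called lower, beside 6.5% of all genes in that setting, and Anln (-0.37), Top2a (-0.44), Ect2 (-0.65), Cenpe (-0.71), Cdc2a (-0.77), Cdca8 (-0.83) and Kif4 (-0.93) were not, while Ccnb1 was.

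At high density the median genotype difference was 0.32 against 0.03 over 15618 genes, 31 of 42 genes were above 0, and the values ran from -0.74 (Foxm1) to 0.90 (Ccnb2). Without scaling between arrays the median was 0.58, against 0.27 over all genes. None was called lower, beside 7.8%, or higher, beside 6.74%. Nuf2 (0.89), Nek2 (0.89), Nusap1 (0.81) and Cenpa (0.76) followed Ccnb2, and Mad2l1 (-0.66), Ccnb1 (-0.64) and Cdc20 (-0.61) lay near Foxm1. Without scaling between arrays 6 of 42 genes were called higher at high density, beside 10.8% of all genes in that setting. All 11 genes below 0 at high density were also below 0 at low density, and all 5 above 0 at low density were also above 0 at high density. Of these genes, Foxm1, Cdc20, Mad2l1, Racgap1, Espl1, Kif2c, Kif23 and Cdca8 reached 2-fold at low density alone, and the rest at neither.

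**Figure D2:**
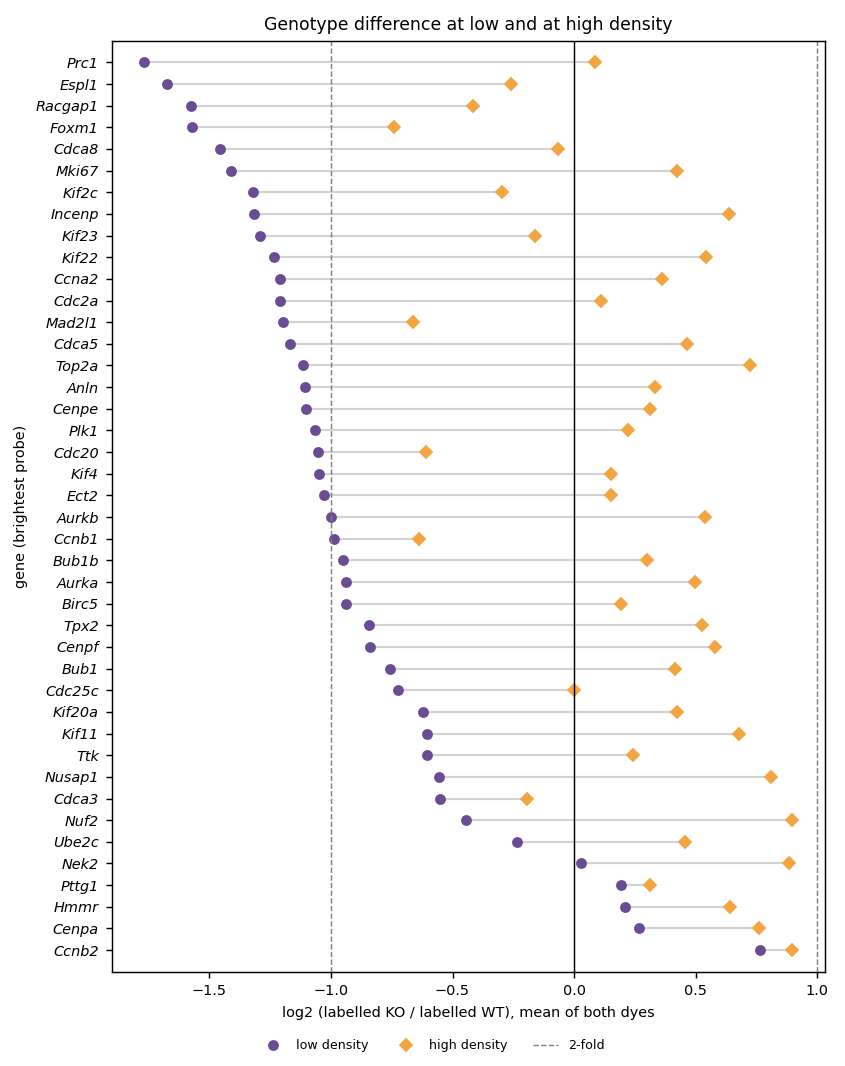
Each row is 1 of the 42 genes, ordered by its value at low density, and the x axis is log2 of KO over WT, averaged over both dyes. Circles are low and diamonds high density, joined by a line, and dashed lines mark 2-fold; 22 circles lie beyond the left line, and no diamond passes either line.

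Set in order, the 4 conditions gave WT low density the highest mean for 37 of 42 genes and WT high density the lowest for 30. Both WT low density values lay above the other 6 in 37 of 42 genes, beside 20.4% of all genes. The same WT low density channels enter the WT density effect, its difference from KO and the low density genotype difference. Those results and this order are therefore not independent. The commonest order, in 18 genes, was WT low, KO low, KO high and WT high density. In 8 genes KO high density stood above KO low density in that order, and in 11 genes KO high density was the lowest of all. KO low density was the highest for Ccnb2, Cenpa, Hmmr and Nek2. Neighbours in these orders often did not differ beyond the spread of the dyes, as for Prc1 and Aurkb in KO.

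**Figure D3:**
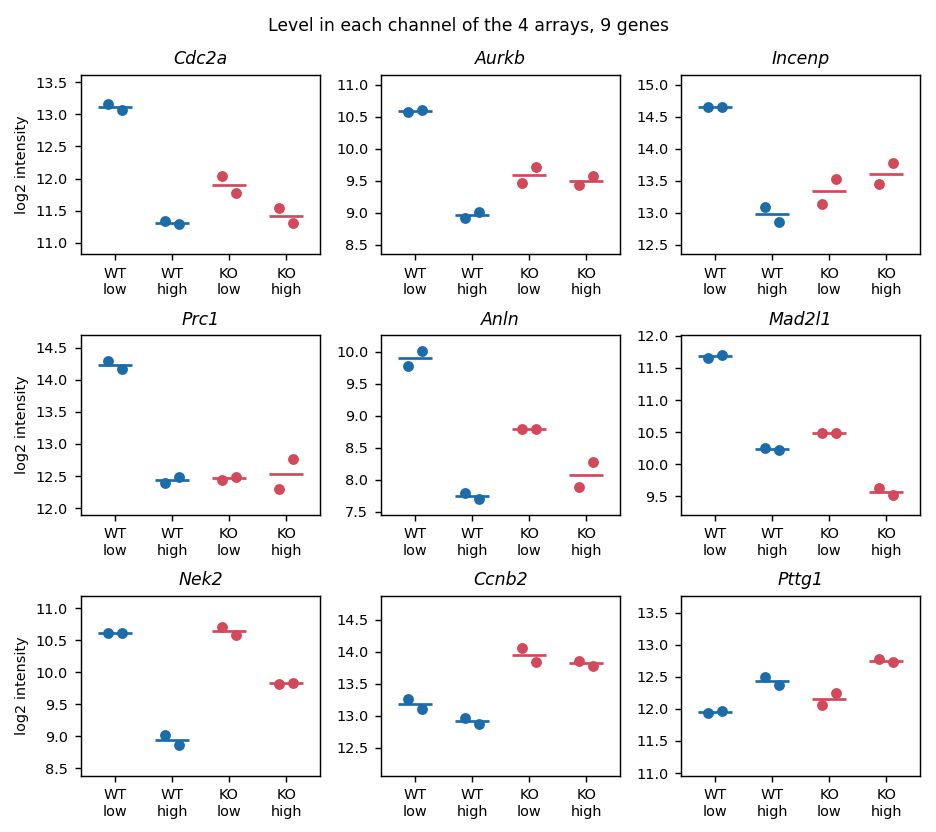
Log2 normalised intensity of 9 genes in the 4 conditions; points are single channels (replicate 1 left, replicate 2 right), lines are their mean, and each panel has its own y axis of the same span, so levels are not compared between genes. Cdc2a, Aurkb, Incenp, Prc1, Anln and Mad2l1 are highest in WT at low density, Nek2 overlaps between genotypes there, Ccnb2 is higher in KO and Pttg1 is higher at high density.

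The mean density effect over WT and KO was tested with limma on the 2 genotype means. That fit has 1 residual degree of freedom, and the difference between genotypes is part of its error. It tests only an effect common to both, so genes whose effects differ between genotypes can hardly pass. Failing it is no sign that a gene had no density effect in WT. At an adjusted p under 0.05 (Benjamini-Hochberg over 14168 genes) 0 genes were called (0.0% of all), and 4133 (29.2%) had an unadjusted p under 0.05. The count at the adjusted threshold over all genes was 113 without WT replicate 1, 77 without KO replicate 1, 95 with median centring, 80 without the offset and 245 with the stricter filter on dim probes, and 0 of the 42 genes were called in any of these. Of the 42 genes 14 had an unadjusted p under 0.05. Mad2l1 was nearest, with a mean effect of -1.18 (SE 0.22) and an adjusted p of 0.0805. A t-test of the 2 genotype means against 0, with a 2-fold minimum and unadjusted p under 0.05, passed 0 of the 42 genes and 333 of all. Of those, 0 passed after Benjamini-Hochberg adjustment. Only these limits come from the study's methods, which set them for Lats2 KO MEFs. The contrast of 2 genotype means is not one the study states. With the 4 arrays as samples and genotype as a random block, 14 of the 42 genes passed, beside 3505 of all 14168 (24.7%), and that fit counts dye swaps as replicates.

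Other genes of the pathway were read from lists written with general knowledge. Among other periodic G2/M genes, 30 of 39 fell in WT, beside 6.09% of all genes, and 1 in KO, beside 3.88%. The medians were -1.26 and -0.34. Pbk, a mitotic kinase, fell by 2.14 in WT and gave 0.36 in KO. Fbxo5, which encodes the APC/C inhibitor EMI1, fell by 1.89 and gave -0.58, and Mybl2, the transcription factor that joins MuvB in S phase, fell in both, by 1.83 and 1.33. Among other kinetochore and centromere proteins, 22 of 35 fell in WT, beside 6.09% of all genes, and 0 in KO, beside 3.88%. The medians were -1.19 and -0.18. Ndc80, the partner of Nuf2, fell by 1.78, Kntc1, of the checkpoint complex RZZ, fell by 1.74 and Sgo1, the shugoshin that guards cohesin, by 1.68.

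Condensin, which compacts chromosomes, had 6 of 8 subunits lowered in WT, beside 6.09% of all genes, with a median of -1.49. In KO 0 were lowered, beside 3.88%, with a median of -0.23. Ncaph fell by 1.84, Ncapg2 fell by 1.73 and Ncapg fell by 1.61 in WT. Of 12 cohesin subunits and loading factors only Esco2, an acetyltransferase of S phase, was called in WT (it fell by 1.35). That count stands beside 6.09% of all genes called lower, and the medians were -0.31 in WT and 0.21 in KO. Of 14 APC/C subunits 0 were called in WT, beside 6.09% of all genes lower and 9.41% higher, with a median of 0.15. Anapc11, the RING subunit, rose in KO by 1.03, and 1 of 14 is near the 7.15% of all genes called higher. Gamma-tubulin ring and augmin subunits gave 6 of 17 lowered in WT, beside 6.09% of all genes, and 1 in KO, beside 3.88%. Haus4, of augmin, fell by 1.72 in WT and gave 0.38 in KO, Haus6 fell in both, by 1.67 and 1.14, and Haus3 fell by 1.43 in WT and gave -0.53 in KO.

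Of 8 phosphatases and inhibitory kinases around CDK1, Mastl (Greatwall) and Pkmyt1 fell in WT, by 1.63 and 1.29. Arpp19, a Greatwall substrate, fell in KO, by 1.03. Over all genes, 6.09% were called lower in WT and 3.88% in KO. Of 8 centriole duplication genes 4 fell in WT, beside 6.09% of all genes. Among them were Stil, which fell by 1.59, Plk4, which fell by 1.53, and Cep152, which fell by 1.32. Only Stil also fell in KO, by 1.06, beside 3.88% of all genes. Of the 10 genes of the MuvB core and its partners 3 fell in WT, beside 6.09% of all genes, and 0 in KO, beside 3.88%. They were Rbl1 (p107), by 1.66, Lin9, by 1.65, and Lin54, which binds CHR elements, by 1.37.

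DNA replication genes were set beside these for comparison, as genes of S phase. In WT 36 of 40 fell, beside 6.09% of all genes, with a median of -1.42, close to the -1.46 of the 42 genes. In KO 8 of 40 fell, beside 3.88% of all genes, with a median of -0.66, against 0 of 42 and -0.24. Tk1 fell by 1.96 in WT and gave -0.31 in KO, Cdc45 fell by 1.95 and gave -0.68, and Chaf1b fell in both, by 1.93 and 1.04. The difference between the genotypes' density effects was called higher in 8 of 40 replication genes, beside 4.56% of all genes. Its median was 0.68, against 29 of 42 and 1.22. At low density 31 of 40 were lower in KO, beside 8.37% of all genes, with a median of -1.19. At high density the median was -0.51, where the 42 genes had 0.32. Whether the lists differ was not tested.

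**Figure D4:**
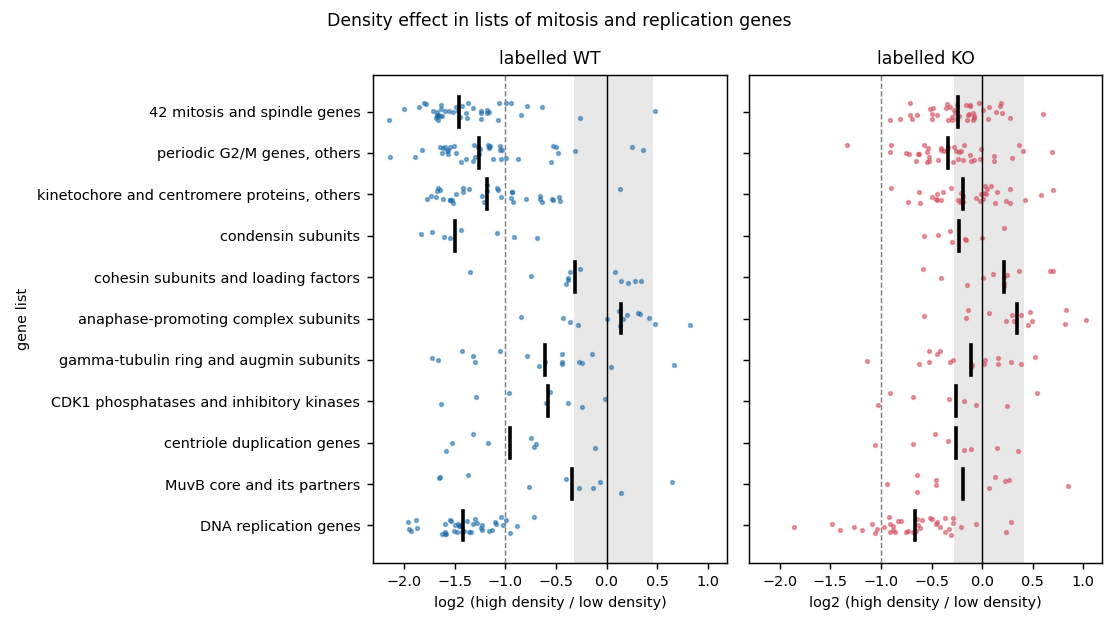
Density effects in WT (left) and KO (right) for the 42 genes and 10 lists; points are genes, black bars medians, the x axis is log2 of high over low density, the shaded band spans the quartiles of all genes and the dashed line marks a 2-fold lower level. The WT medians of the 42 genes, condensin and replication genes lie near -1.5, those of cohesin, APC/C and MuvB genes near or inside the band, and in KO the replication genes have the lowest median.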

How the data were processed

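The 42 genes, the lists and the rules were chosen with earlier results of these data known. Per the labels, 500 ng of total RNA per channel was labelled and hybridised. The authors extracted the scans with Agilent Feature Extraction 10.5.1.1, and each deposited file holds raw and processed spot intensity, background and flags, with gene names and mm8 probe positions. The deposited log10 ratio of Cy5 over Cy3 and the series matrix, which holds the same ratio turned to high over low density, served as a check only. Raw intensity was background-corrected by normexp (offset 50) and normalised by loess within arrays, and single channels were scaled between arrays by Aquantile, in R 4.3.3 with limma 3.58.1, data.table (1.17.8) and statmod 1.5.0. The offset makes changes of dim probes smaller. Flagged features and controls were left out, and spots of one probe averaged. For a density contrast a probe had to be well above background at 1 or both densities, on each array of the pair, and for a genotype contrast in 1 or both genotypes, in each dye. The brightest probe stood for a gene. limma's eBayes was fitted across all genes to the genotype means, with Benjamini-Hochberg adjustment. The rule named all 42 genes, other probes where a density effect differed by 1 log2 unit or in sign, and up to 3 called genes of each list plus any called against its direction. Probes differing between genotypes were chosen after their values were seen. RefSeq names of GRCm38.p6 matched 19931 of 27745 gene names and served for names only. Alternatives were median centring, the processed signals, no offset, the mean over probes, 2 other filters on dim probes and each array left out. A 1.4-fold rule, 2 other scalings between arrays, a t-test at the limits of the study's methods and a random block were also run. The scripts were tested on simulated data. Python 3.11.15, numpy 2.4.6, pandas 2.3.3 and matplotlib 3.10.9 were used. Array number limits the precision, and the dye swap covers technical error.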

Additional observations from a re-analysis of the deposited data

Results flagged for a closer look

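The density effects of Incenp, Mki67, Cenpf and Nusap1 were flagged because both WT arrays lay below 0 and both KO arrays above 0. The difference between the genotypes' effects, KO minus WT, was 1.95 for Incenp, 1.83 for Mki67, 1.42 for Cenpf and 1.37 for Nusap1 on the log2 scale. These differences were not tested, since each genotype had 1 sample per density. With median centring the KO values of the 4 genes turned below 0, and a second Cenpf probe gave -0.07 in KO.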

How the results depend on the processing

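The WT result held in each setting run: between 31 and 40 of the 42 genes were called lower, the lowest count with the mean over probes (beside 4.99% of all genes), which lost Cenpf, Kif11, Nuf2 and Nusap1, and the highest with a 1.4-fold rule (beside 17.6%). The difference between the genotypes' effects was called in 21 genes with the mean over probes (beside 3.39%), in 36 at 1.4-fold (beside 15.5%) and in 27 to 31 in the other settings. In KO the count lowered went from 0 to 3 with median centring (beside 6.94% of all genes), to 1 (Mad2l1) with processed signals (beside 7.91%) and to 9 at 1.4-fold (beside 15.2%), and was 0 without either KO array. Lower in KO at low density were 22, but 9 without scaling between arrays (beside 5.25%) and 35 at 1.4-fold (beside 3351 of 15252 genes), with 19 to 23 when an array was left out. Higher in KO at high density were 0, but 2 with processed signals (Hmmr and Nek2, beside 12.4%), 6 without scaling (beside 10.8%) and 14 at 1.4-fold (beside 19.2%), and 0 to 1 when an array was left out (Nusap1, without WT or KO replicate 1, since the dye-matched partner then drops out too). At 1.4-fold Foxm1 (-0.74), Mad2l1 (-0.66), Ccnb1 (-0.64) and Cdc20 (-0.61) passed on the lower side, beside 20.2% of all genes. The common effect passed for 14 genes with genotype as a random block, and for 0 in the other fits. No called value of a member changed sign in any setting. Median centring moved the median of all genes from 0.06 to -0.05 in WT and to -0.08 in KO, and the share of called genes that were higher from 60.7% to 47.1% and from 64.8% to 42.8%. Leaving out scaling moved that share from 46.6% to 69.1% at low density and from 46.3% to 66.6% at high density. The causes were not tested. The density contrasts were paired by array and the genotype contrasts matched by dye. No replicate block was fitted beyond that, because the labels give no replicate numbers and those used here only name arrays in accession order.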
